A study of Macaca mulatta with 2 samples.

Results

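The genes described here make up the presynaptic vesicle and release machinery, followed by RNA sequencing in macaque prefrontal cortex. They were taken by symbol from a list of 51 synaptic vesicle proteins, SNAREs, synaptotagmins, active zone proteins and endocytosis proteins. Of these, 50 were found among the 33618 genes of the deposited table. CADPS2 is not listed there under that symbol and was not analysed here.

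At a presynaptic terminal, vesicles filled with transmitter are docked at the active zone, primed by Munc13 and RIM proteins, and held ready until calcium enters. Calcium binding to a synaptotagmin then triggers fusion by the SNARE complex of VAMP on the vesicle and syntaxin and SNAP-25 on the plasma membrane, with complexin as a clamp and helper. NSF and its SNAP adaptors take the spent complex apart, and dynamin, amphiphysin, synaptojanin and AP180 retrieve the membrane. In the cortex most of these genes are used by all neurons, while a few paralogues mark particular neuron types or ages.

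The tissue was the prefrontal cortex of rhesus macaques (Macaca mulatta) of postnatal day 28 by the labels. The control group is represented by 1 library (CON), for which the labels give no separate treatment. The sevoflurane group is represented by 1 library (SEV), and its animals inhaled about 2.5 to 3% of this volatile anesthetic for several hours on about postnatal days 7, 14 and 28. The methods text gives later days for the repeat exposures, and states that the cortex was taken immediately after the last of them. The series design lists 3 samples per group, the others were not analysed here, and the sources used here do not say whether a library held RNA of a single animal or of a pool.

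Reads on genes totalled 16960880 for the control and 9839105 for sevoflurane. With 1 library per group there are no replicates, so every difference below is between these 2 libraries and not between the conditions, and no p-value is given. Levels are reads put on a common depth with TMM scaling (CPM), and the log2 ratio is sevoflurane over control. Intervals are 95% exact counting intervals, which cover counting error only and not the variation between animals. Over 7 Y-linked genes the control had 3 reads and the sevoflurane library 4308, so the sevoflurane library held male RNA and the control almost none. The methods text gives only female controls, and a male among the exposed animals. Exposure, animals and their sex therefore cannot be told apart. In bulk tissue, fewer cells of a type and less RNA per cell cannot be told apart either. Transcript lengths were not used, so CPM and read shares of different genes are not per length and do not rank their expression.

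All 50 genes reached 1 CPM in at least 1 library, so no gene was lost to the filter, and the lowest count of any of them was 93 reads (RIMS2). As a whole the machinery differed little between the libraries. Its 50 genes took 1.88% of the control reads (interval 1.87 to 1.88%) and 1.73% of the sevoflurane reads (interval 1.72 to 1.73%). The median log2 ratio was -0.06, beside -0.0048 over the 18050 genes tested. Single genes spread on both sides, from -1.01 (NAPB) to 2.91 (SYT2), with 22 ratios above 0 and 28 below.

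Of the 50, 3 genes were at least 2-fold higher in the sevoflurane library with an interval above equal expression (SYT2, SLC17A6 and VAMP1), where 7.56% of all tested genes were, and 2 were at least 2-fold lower (NAPB and SYN2), where 5.47% were. Both lower genes sat at the threshold, and with library totals in place of TMM neither passed it while SYT5 became the fourth higher gene. At a threshold of 1.5-fold, 11 genes were higher, against a background of 14.4%, and 7 were lower, against 11.9%. The interval lay above equal expression for 16 genes and below it for 24, against 28.4% and 28.1% of all tested genes, and it spanned equality for the other 10. Scaled to the median of 10 neuron markers, which was itself -0.37, 9 members were at least 2-fold higher and none lower, and 13 were at least 1.5-fold higher and 2 lower. The members were deeply read, with a median of the mean level of 240.1 CPM against 16.6 CPM over all tested genes. Their counting intervals are therefore narrow and exclude equality at smaller differences. The shares of intervals given for all tested genes, here and below, are at that lower depth.

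**Figure D1:**
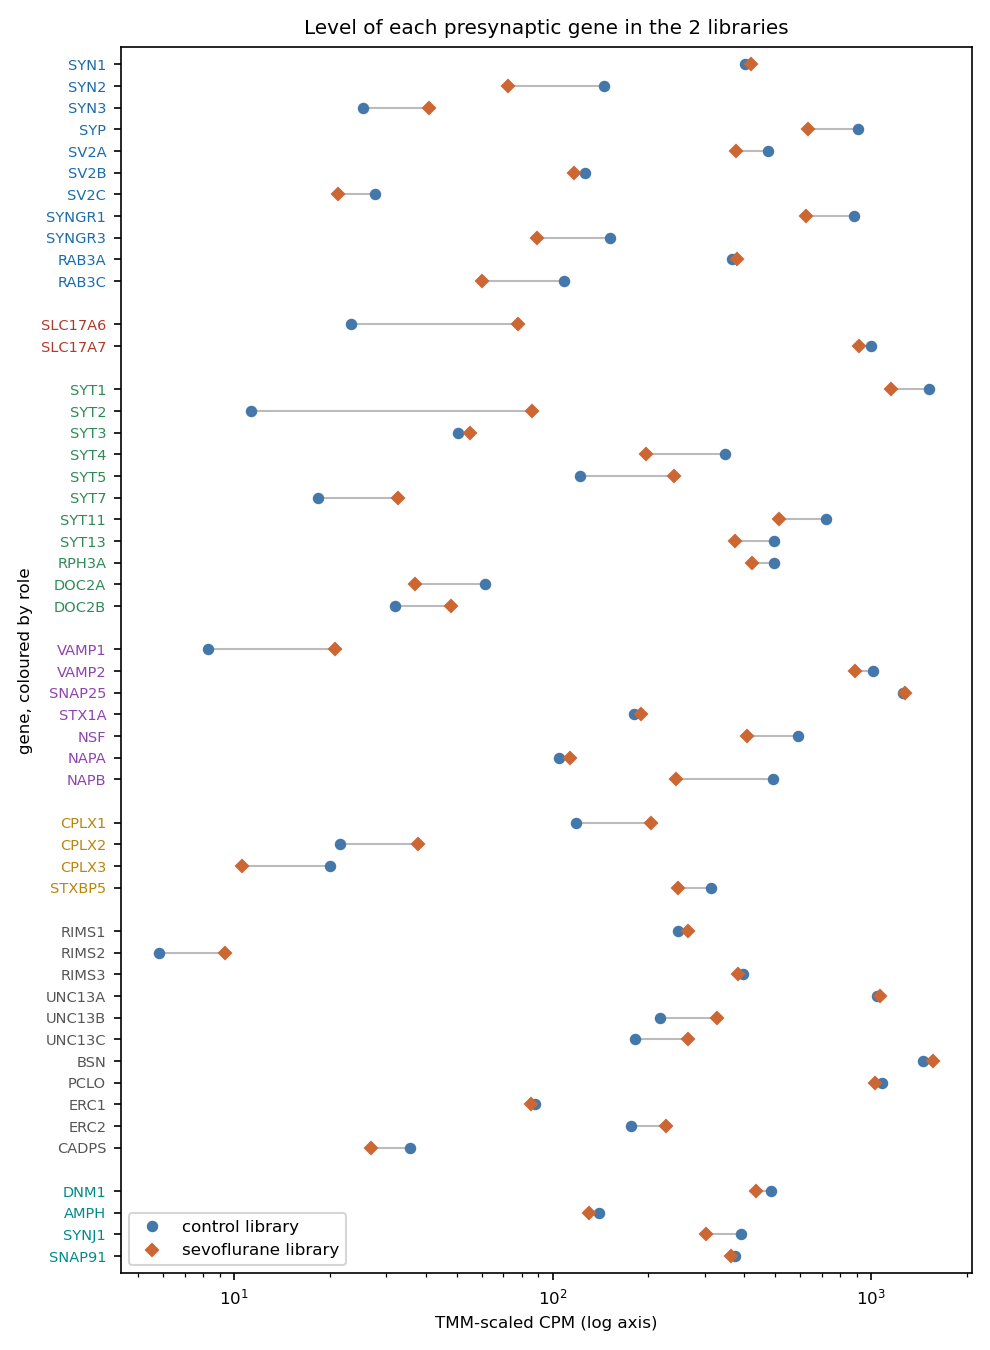
TMM-scaled CPM (log axis) of each of the 50 genes in the control library (circles) and the sevoflurane library (diamonds), grouped and coloured by role, with 1 library per group. SYT2 has the widest gap, from 11.3 to 85.9 CPM, while SNAP25, UNC13A and SYN1 nearly coincide.

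**Figure D2:**
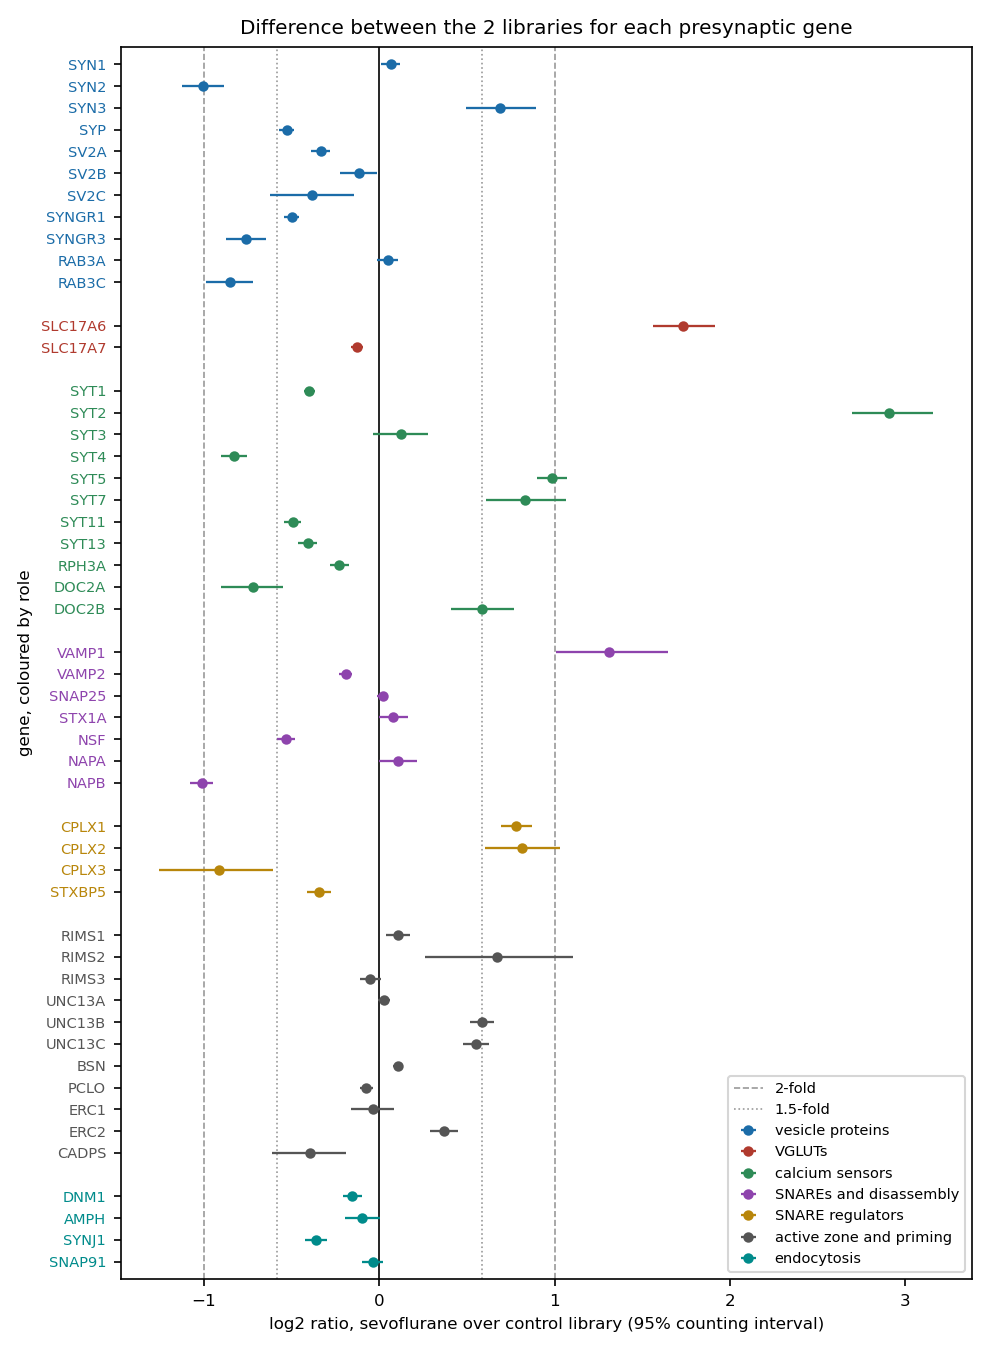
Log2 ratio of sevoflurane over control for each gene (points) with its 95% exact counting interval (bars), and dashed and dotted lines at 2-fold and 1.5-fold. SYT2, SLC17A6 and VAMP1 lie beyond 2-fold on the higher side, and NAPB and SYN2 on the 2-fold line on the lower side.

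Most genes for proteins of the vesicle membrane had lower RNA levels in the sevoflurane library. Of 11 genes, 8 had an interval below equal expression (28.1% of all tested genes), 2 above (28.4%) and 1 spanned it, and the median was -0.38. Together they held 0.359% of the control and 0.286% of the sevoflurane reads. The 10 neuron markers had a similar median of -0.37, but ran from -0.95 (GAP43) to 0.83 (RBFOX3). The excitatory and inhibitory neuron markers had medians of 0.44 and 0.0007. The part of neuronal RNA in the vesicle values was not tested. Scaled to the 10 neuron markers, SYN1, SYN3, SV2B and RAB3A had ratios above equal expression. SV2A (0.03) and SV2C (-0.01) were then close to equal, and the others were below. The synapsins, which tether vesicles to each other and to actin, went apart. SYN1, an abundant synapsin of mature terminals, had 6763 and 4179 reads, with the control first here and in each pair of values that follows (402.5 and 420.8 CPM, log2 ratio 0.06, interval 0.01 to 0.12). SYN2 had 2441 and 719 reads, or 145.3 and 72.4 CPM, a log2 ratio of -1.00 (interval -1.13 to -0.88). SYN3, the synapsin known from immature neurons, had 426 and 407 reads, or 25.4 and 41.0 CPM, a log2 ratio of 0.69 (interval 0.49 to 0.89). SYN2 was therefore at about the 2-fold line on the lower side, SYN3 above 1.5-fold on the higher side, and SYN1 close to equal.

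SYP, which encodes the abundant vesicle protein synaptophysin, had 15329 and 6287 reads, and its log2 ratio was -0.53 (interval -0.57 to -0.48). SYN1 and SYP are both X-linked, and the part of the animals' sex in their values was not tested. The related tetraspan protein SYNGR1 (synaptogyrin-1) had 14868 and 6216 reads (-0.50) and SYNGR3 had 2544 and 888 reads (-0.76). All 3 tetraspan genes were thus lower in the sevoflurane library, and SYNGR3 passed 1.5-fold. The SV2 glycoproteins, which are the entry receptors of botulinum toxin A, were also lower. SV2A, the target of the drug levetiracetam, had 7979 and 3739 reads (-0.33), SV2B 2122 and 1156 (-0.12) and SV2C 466 and 211 (-0.38). None of the SV2 genes reached 1.5-fold. Of the small GTPases that mark the vesicle for docking, RAB3A had 6167 and 3765 reads (0.05, interval -0.01 to 0.11), and RAB3C had 1820 and 596 (-0.85, interval -0.99 to -0.72). RAB3A was not distinguishable from equal expression, whereas RAB3C was at least 1.5-fold lower.

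The vesicular glutamate transporters load glutamate into vesicles and define excitatory terminals. SLC17A7, which encodes VGLUT1 and is the main transporter of cortical projection neurons, had 16767 control and 9073 sevoflurane reads, or 997.8 and 913.6 CPM (log2 ratio -0.13, interval -0.16 to -0.09). SLC17A6, which encodes VGLUT2 and is best known from thalamic and other subcortical neurons and from the young cortex, had 392 and 772 reads, or 23.3 and 77.7 CPM. Its log2 ratio was 1.73 (interval 1.56 to 1.92), a 3.33-fold higher level in the sevoflurane library. SLC17A6 held 2.28% of the reads on this pair in the control (interval 2.07 to 2.52%) and 7.84% in the sevoflurane library (interval 7.32 to 8.39%). The difference between the pair, free of any scaling, was a log2 ratio of ratios of 1.86 (interval 1.68 to 2.04).

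The calcium sensors held the widest range of any group, from -0.83 (SYT4) to 2.91 (SYT2), with a median of -0.23 over 11 genes. SYT1, the main fast sensor of forebrain neurons, had 25532 and 11445 reads, or 1519 and 1152 CPM (log2 ratio -0.40, interval -0.43 to -0.37). SYT2, the fast sensor of brainstem, spinal and some inhibitory cortical terminals, had 190 and 853 reads, or 11.3 and 85.9 CPM. Its log2 ratio was 2.91 (interval 2.70 to 3.16), a 7.60-fold higher level, which lay at percentile 99.3 of all tested genes. Of the reads on these fast sensors, SYT2 held 0.739% in the control (interval 0.638 to 0.851%) and 6.94% in the sevoflurane library (interval 6.49 to 7.40%).

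Among the other sensors, those higher in the sevoflurane library were SYT5, SYT7 and DOC2B. SYT5, a calcium-binding synaptotagmin, had 2049 and 2394 reads despite the shallower second library, a log2 ratio of 0.98 (interval 0.90 to 1.07) just under the 2-fold line. SYT7, the slow high-affinity sensor of asynchronous release and facilitation, had 308 and 325 reads (0.83, interval 0.61 to 1.07). The DOC2 proteins, soluble sensors linked to spontaneous and asynchronous release, went in opposite directions. DOC2A had 1029 and 368 reads (-0.72, interval -0.90 to -0.55) and DOC2B had 537 and 477 (0.59, interval 0.41 to 0.77). DOC2B held 34.3% of the DOC2 reads of the control and 56.4% of those of the sevoflurane library. The more frequently read paralogue was therefore not the same in both libraries.

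SYT4, an activity-inducible synaptotagmin of dense-core vesicles, had 5848 and 1944 reads (-0.83, interval -0.90 to -0.76). SYT11 and SYT13, atypical members that do not act as calcium sensors of fusion, had 12154 and 5098 reads (-0.49) and 8356 and 3720 reads (-0.41). RPH3A, which encodes the RAB3 effector rabphilin, had 8315 and 4195 (-0.23). These 4 genes were lower with intervals below equal expression, and only SYT4 among them passed 1.5-fold. SYT3 had 851 and 548 reads and an interval that spanned equality (0.12, interval -0.03 to 0.28).

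Of the core SNARE genes, SNAP25 and STX1A had intervals that spanned equality. SNAP25, which gives a pair of helices to the complex, had 21120 control and 12658 sevoflurane reads, or 1257 and 1275 CPM (log2 ratio 0.02, interval -0.01 to 0.05). STX1A, the plasma membrane syntaxin, had 3020 and 1888 reads (0.08, interval -0.003 to 0.16). VAMP2, the main vesicle SNARE of the forebrain, had 17050 and 8833 reads (-0.19, interval -0.23 to -0.15). Its paralogue VAMP1, the main form of spinal and brainstem neurons and of fast-spiking cortical cells, stood apart with 139 and 206 reads, or 8.27 and 20.7 CPM. The VAMP1 log2 ratio was 1.31 (interval 1.01 to 1.65), a 2.51-fold higher level. VAMP1 held 0.809% of the reads on the VAMP pair in the control (interval 0.680 to 0.954%) and 2.28% in the sevoflurane library (interval 1.98 to 2.61%).

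In the disassembly step, the ATPase gene NSF had 9900 and 4048 reads (log2 ratio -0.53, interval -0.58 to -0.48). Its adaptors differed from each other. NAPB, which encodes the neuronal beta-SNAP, had 8271 and 2422 reads, or 492.2 and 243.9 CPM (-1.01, interval -1.08 to -0.95), and was the lowest of all 50. NAPA, which encodes the ubiquitous alpha-SNAP, had 1766 and 1124 reads (0.11, interval -0.002 to 0.22). The share of NAPA in the reads on this pair was 17.6% in the control (interval 16.9 to 18.4%) and 31.7% in the sevoflurane library (interval 30.2 to 33.3%).

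Among the regulators of the SNARE complex, the complexins were split. CPLX1, the complexin of many inhibitory and fast-firing neurons, had 1991 control and 2025 sevoflurane reads, or 118.5 and 203.9 CPM (log2 ratio 0.78, interval 0.69 to 0.87). CPLX2, the form typical of excitatory forebrain neurons, had 361 and 376 reads (0.81, interval 0.61 to 1.03). CPLX3, known from retinal ribbon synapses and, in the cortex, from subplate-type neurons of the deepest layer, had 337 and 105 reads, or 20.1 and 10.6 CPM (-0.91, interval -1.25 to -0.60). CPLX1 and CPLX2 did not differ from each other beyond counting error, with a log2 ratio of ratios of -0.03 (interval -0.26 to 0.19), whereas CPLX1 against CPLX3 came to 1.71 (interval 1.38 to 2.04). STXBP5, which encodes tomosyn, an inhibitor of SNARE assembly, had 5288 and 2461 reads (-0.34, interval -0.41 to -0.28).

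The active zone and priming genes had a median of 0.11, and 6 of the 11 found had an interval above equal expression (28.4% of all tested genes), 2 below (28.1%) and 3 spanning it. Together they held 0.488% of the control and 0.530% of the sevoflurane reads. The giant scaffolds were close to equal. BSN (bassoon) had 24445 and 15567 reads (0.11, interval 0.08 to 0.14) and PCLO (piccolo) had 18152 and 10194 (-0.07, interval -0.11 to -0.04). The primary Munc13 of excitatory terminals, UNC13A, had 17521 and 10552 reads, or 1043 and 1063 CPM (0.03, interval -0.01 to 0.06). UNC13B had 3657 and 3249 reads (0.59, interval 0.52 to 0.66) and UNC13C, best known from the cerebellum, had 3050 and 2644 (0.55, interval 0.48 to 0.63). UNC13B just passed 1.5-fold and UNC13C fell just short of it. UNC13A held 72.3% of the Munc13 reads of the control and 64.2% of those of the sevoflurane library.

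The RIM scaffolds encoded by RIMS1 and RIMS2 link RAB3 on the vesicle to calcium channels. RIMS1 had 4146 and 2639 reads (0.11, interval 0.04 to 0.18), RIMS3 had 6646 and 3793 (-0.05, interval -0.11 to 0.01), and RIMS2 had 98 and 93 (0.67, interval 0.26 to 1.11). Only RIMS2, the gene with the fewest reads of all members, passed 1.5-fold. Of the ELKS scaffolds, ERC1, which is also used outside the brain, had 1475 and 850 reads (-0.04, interval -0.16 to 0.09), and the synaptic ERC2 had 2955 and 2253 (0.37, interval 0.29 to 0.45). CADPS, which primes dense-core vesicles, had 598 and 268 reads (-0.40, interval -0.61 to -0.19).

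The 4 endocytosis genes had log2 ratios between -0.36 and -0.04, all below 0 and none beyond 1.5-fold, with a median of -0.13. SYNJ1, the lipid phosphatase that uncoats retrieved vesicles, had 6561 and 3019 reads (-0.36, interval -0.42 to -0.30). DNM1, the neuronal dynamin that cuts them from the membrane, had 8158 and 4332 (-0.15, interval -0.21 to -0.10). The intervals of AMPH (2343 and 1295 reads, -0.10) and SNAP91, which encodes AP180 (6259 and 3602 reads, -0.04), spanned equality.

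**Figure D3:**
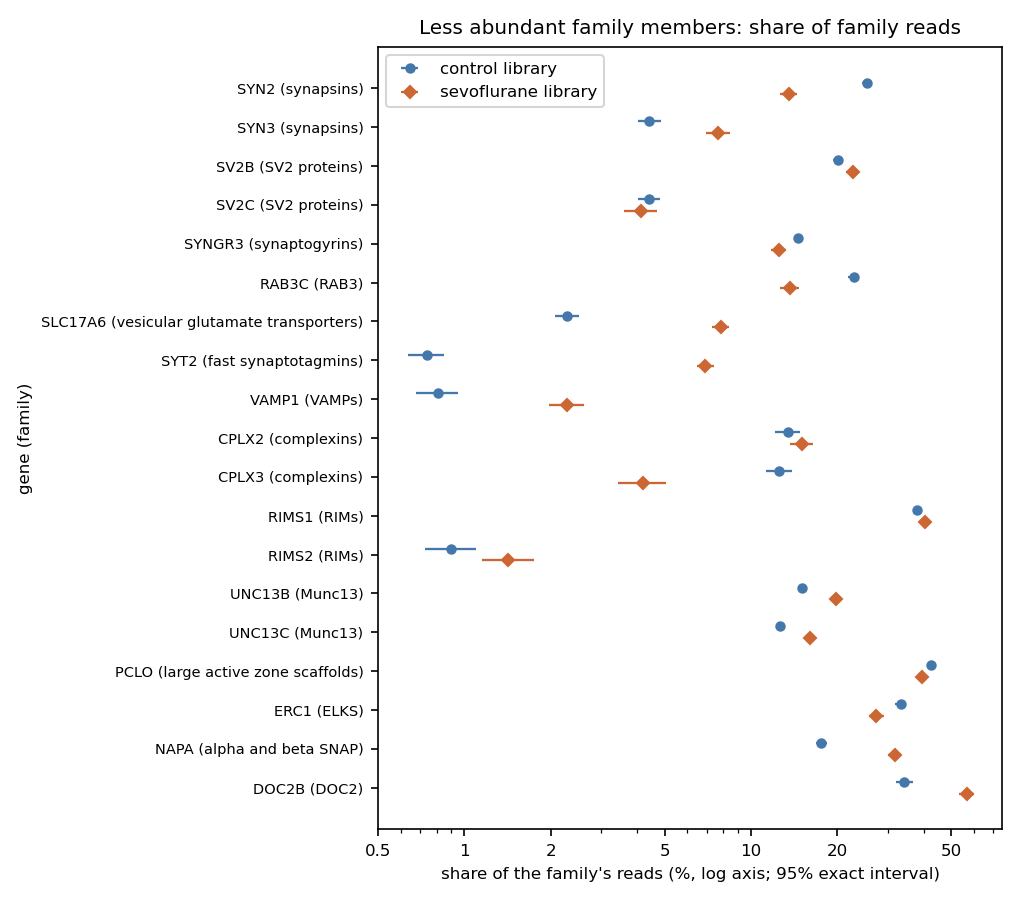
Share of a family's reads (percent, log axis) held by each member other than the one with the most control reads, in the control (circles) and sevoflurane library (diamonds), with 95% exact intervals as bars. SYT2, SLC17A6, VAMP1, SYN3 and DOC2B take a larger share in the sevoflurane library, and SYN2, CPLX3 and RAB3C a smaller one.

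Comparing paralogues within a library removes the scaling between libraries, and 24 such pairs in 14 families could be formed. The widest was SYT1 against SYT2, with a log2 ratio of ratios of -3.32 (interval -3.55 to -3.10). For each SYT2 read the control had 134.4 SYT1 reads, and the sevoflurane library had 13.4. SLC17A6 against SLC17A7 followed at 1.86. CPLX2 against CPLX3 came to 1.74 (interval 1.36 to 2.12), SYN2 against SYN3 to -1.70 (interval -1.93 to -1.47) and VAMP1 against VAMP2 to 1.52 (interval 1.20 to 1.83). DOC2A against DOC2B came to -1.31 (interval -1.56 to -1.07), NAPA against NAPB to 1.12 (interval 0.99 to 1.25) and RAB3A against RAB3C to 0.90 (interval 0.75 to 1.04). The paralogue with fewer control reads had a larger share of the pair's reads in the sevoflurane library than in the control in 13 pairs and a smaller one in 8, RAB3A with RAB3C and SYN1 with SYN2 among the latter, with intervals excluding no difference. The pairs SV2A with SV2C, CPLX1 with CPLX2 and UNC13B with UNC13C had intervals that included no difference. Which paralogue had fewer reads was set by the same control counts that enter the comparison. Pairs of the same family share genes, and no share over other gene pairs was computed. The counts of pairs are therefore descriptions only.

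**Figure D4:**
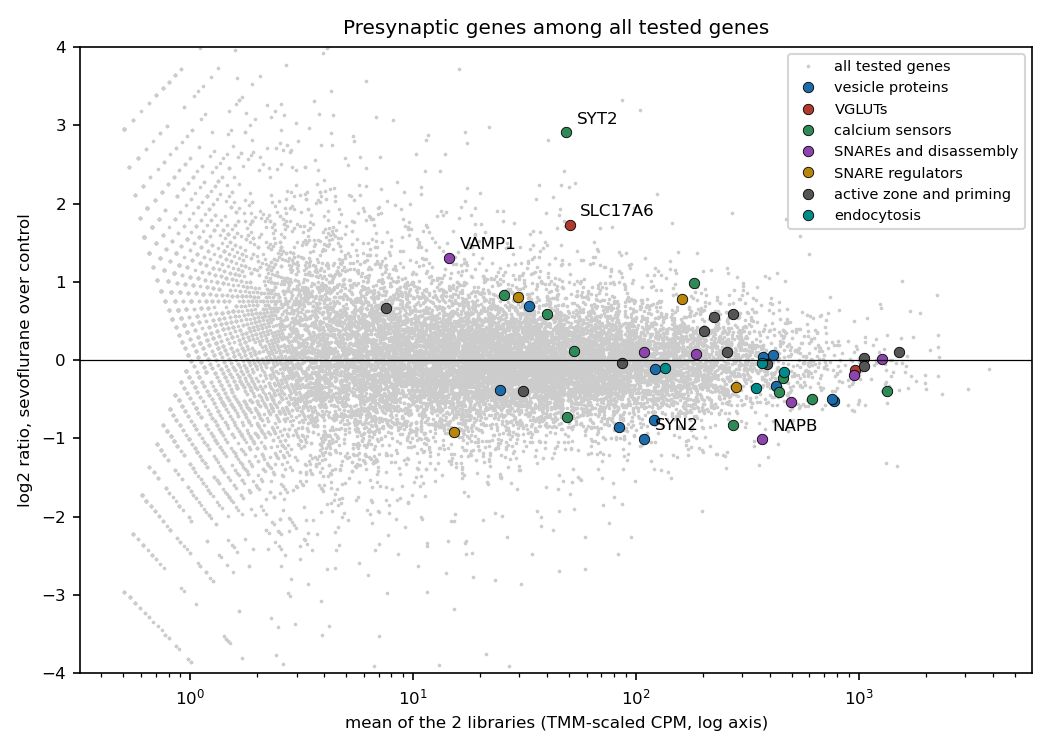
Log2 ratio of sevoflurane over control against the mean level of both libraries (TMM-scaled CPM, log axis) for the 18050 tested genes (grey) and the 50 presynaptic genes (coloured by role), with the 5 genes at least 2-fold apart named. The coloured points gather around 0 at high levels and 53 grey points lie outside the plotted range of -4 to 4.

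Across the 50 genes, Spearman's rho between the log2 ratio and the mean level was -0.30, and between the ratio and the gene span it was 0.14. Over all tested genes these were -0.09 and, for the 15077 with a span in the RefSeq table, -0.01. Ratio and level come from the same 2 libraries, so these are descriptions only. The 3 members at least 2-fold higher were among the least read in the control, with 190 reads for SYT2, 392 for SLC17A6 and 139 for VAMP1.

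A wider list of 84 presynaptic genes outside the membership was read in the same way, and 81 were found and 78 tested. Their median log2 ratio was -0.26, with 14 intervals above equal expression, 44 below and 20 spanning it. Over all tested genes 28.4% of the intervals lay above and 28.1% below. Of the 78, 1 gene was at least 2-fold higher, against 7.56% of all tested genes, and 5 were at least 2-fold lower, against 5.47%. PPFIA4, a liprin-alpha scaffold of the active zone, had 3097 and 3814 reads (log2 ratio 1.06, interval 0.99 to 1.13). BAIAP3, a Munc13-like protein of dense-core vesicle traffic, had 690 and 57 reads, or 41.1 and 5.74 CPM (-2.81, interval -3.25 to -2.45). It was far lower than any member of the release machinery list.

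The other lower genes of that list were SNCG, STXBP6, SVOP and SLC17A8. SNCG, which encodes gamma-synuclein, had 517 and 133 reads (-1.19, interval -1.49 to -0.92), while SNCB, which encodes beta-synuclein, had 2192 and 2362 (0.87, interval 0.78 to 0.95). The ratios of SNCG and SNCB thus lay on opposite sides of equal expression. STXBP6, which encodes the SNARE-binding protein amisyn, had 392 and 104 reads (-1.14, interval -1.48 to -0.84), and SVOP, a vesicle protein related to SV2, had 4076 and 1113 (-1.11, interval -1.21 to -1.02). SLC17A8, which encodes the third vesicular glutamate transporter and was named after its values were seen because its level was too low for the naming rule, had 26 and 4 reads (interval -3.92 to -0.41).

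By role, the other vesicle membrane genes had a median of -0.36 over 18 and the other sensors -0.36 over 9. The other SNARE genes and their regulators had -0.11 over 16, the other active zone genes -0.04 over 13, and the other endocytosis genes -0.27 over 22. As in the membership, the vesicle membrane genes had a lower median than the active zone genes (-0.38 and 0.11 there). Most coat genes were lower. CLTC, the clathrin heavy chain, had 19502 and 7379 reads (-0.64), and the light chain CLTA was at -0.23. The AP2 adaptor genes were also lower, from -0.17 (AP2A1) to -0.93 (AP2S1), though the interval of AP2A2 spanned equality. CLTB, the other light chain, was higher (679 and 737 reads, 0.87). The inhibitory counterpart of the glutamate transporters, SLC32A1, had 879 and 411 reads (-0.34, interval -0.51 to -0.17).

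**Figure D5:**
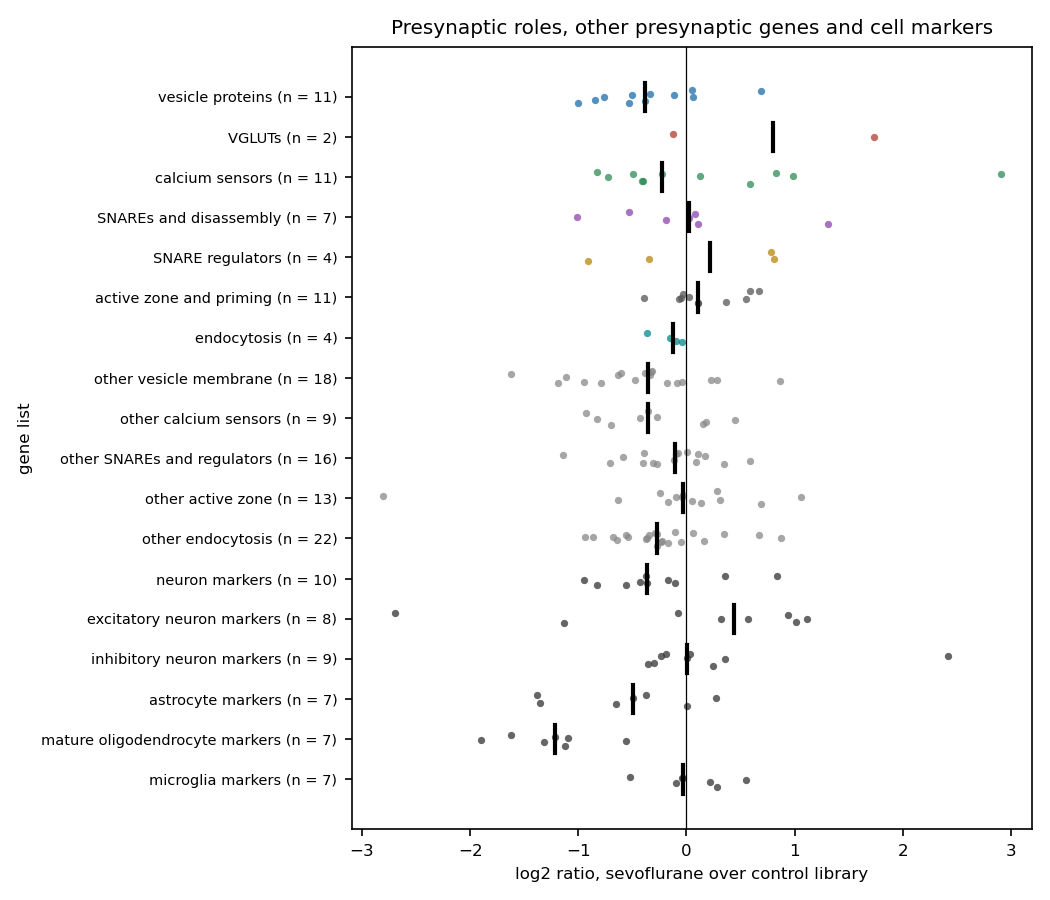
Log2 ratio of sevoflurane over control for the tested genes (points) of each presynaptic role, of the other presynaptic genes and of cell markers, with the median of each list as a black bar. The mature oligodendrocyte markers have the lowest median (-1.21), and the presynaptic lists lie between -0.38 and 0.80.

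Cell markers differed between the libraries beside these genes. The 10 neuron markers had a median of -0.37, with 8 lower and 2 higher, and their summed level was 6370 CPM (control) and 4971 CPM (sevoflurane). The 8 markers of cortical excitatory neurons each had at least 67 reads in both libraries, which is too weak to check the label of cortex. They had a median of 0.44, from -2.69 (NEUROD6) to 1.12 (CUX2), and summed to 3747 and 5505 CPM. NRGN (1.01) and CUX2 were at least 2-fold higher, where 7.56% of all tested genes were. NEUROD6 and FEZF2 (-1.14) were at least 2-fold lower, where 5.47% were. The 9 inhibitory neuron markers had a median of 0.0007, from -0.35 (SST) to 2.42 (PVALB), and summed to 859.2 and 917.0 CPM. PVALB, the marker of fast-spiking interneurons, had 68 control and 221 sevoflurane reads (interval 2.06 to 2.87) and was the only one of those 9 beyond 1.5-fold. Of the 9, 5 ratios lay above 0 and 4 below. The ratio of PVALB had the same sign as those of 22 of the 50 members, SYT2, VAMP1 and CPLX1 among them. The part of PVALB cells in the values of these members was not tested.

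All 7 mature oligodendrocyte markers were lower, with summed levels of 4115 (control) and 2013 CPM (sevoflurane), and the 7 astrocyte markers summed to 6147 and 4264 CPM with a median of -0.49. The 7 microglia markers summed to 220.5 and 220.2 CPM, with a median of -0.03. None of the marker genes was at 0 in either library. The part of these cell markers in the presynaptic values was not tested.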

How the data were processed

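Total RNA from prefrontal cortex was sequenced by the authors, who deposited whole-number read counts per gene, not normalized, with 1 column per library. The submitters' processing notes name HISAT2 2.0.4. The counting tool, its settings for shared reads and strand, the genome build and the annotation are not given in the sources used here, so no coordinates or sequences are printed. Libraries were matched to groups by title (1 library per group). Paralogues and overlapping genes may share reads.

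Counts were scaled with TMM (edgeR 4.0.16, R 4.3.3) on the genes that reached 1 CPM in either library, and log2 ratios used a prior count of 2. Exact Clopper-Pearson limits (95%) of the sevoflurane share of a gene's reads gave the interval, with scipy 1.17.1, numpy 2.4.6, pandas 2.3.3 and Python 3.11.15 (plots by matplotlib 3.10.9). A fold in the text is the ratio of CPM without the prior count. Genes counted as apart had a log2 ratio of at least 1 (2-fold) or 0.58 (1.5-fold) in size and an interval excluding equality. Ratios of paralogue ratios have normal-approximation counting intervals. The quasi-likelihood test of edgeR could not be fitted with 1 library per group. The procedure was tested on simulated data.

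Alternative settings were scaling by DESeq2 1.42.0, by library totals, by upper quartile or by neuron markers, a prior count of 0.5, filters of 1 read and 5 CPM, the control library sampled down, and a 99.9% interval. All members are named. Of the other presynaptic genes, those named are the ones at least 2-fold apart whose mean reached 1 CPM and the 3 highest and 3 lowest of those whose mean reached 5 CPM. CLTA, CLTC, the AP2 genes, SLC32A1 and SLC17A8 were added after their values were seen. The members and lists were chosen with earlier results of these data known. Gene spans came from RefSeq (assembly MMU8v2.0), which matched all 50 members.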

Additional observations from a re-analysis of the deposited data

How the results depend on the processing

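The alternative filters and the wider interval do not enter a log2 ratio as computed here, so they could not move it. Under the other alternatives all 50 log2 ratios stayed within their counting intervals, except with the scaling to the neuron markers. That scaling adds 0.37 to every ratio and took 49 of them outside. With that scaling, 9 members were at least 2-fold higher and 0 lower, 2 were at least 1.5-fold lower, and the median of the members was 0.31. Of the other presynaptic genes, 5 were then at least 2-fold higher and 2 lower, and their median changed sign to 0.11. The number of members at least 2-fold lower was 1 with DESeq2 size factors and 1 with upper-quartile scaling (NAPB in both), and 0 with library totals, against 2 with TMM, since NAPB and SYN2 lie on the threshold. All 24 paralogue comparisons stayed within their intervals with the control library sampled down. No paired analysis was possible because there was a single library on each side, and for the same reason no library could be left out. The depth of 9839105 reads limits most the genes with few reads, such as RIMS2 and VAMP1.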
